A study of Caenorhabditis elegans with 2 samples.

Results

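The genes that encode RNA polymerase II, its promoter-recognition factor TFIID, the Mediator coactivator and the Integrator complex were examined for binding of MEP-1, a zinc finger protein of Caenorhabditis elegans, in first-stage (L1) larvae. They were taken by name, as every protein-coding gene whose Ensembl WBcel235 symbol starts with rpb-, taf-, mdt- or ints-, which gave 59 of 19973 protein-coding genes. There were 11 RNA polymerase II genes, 17 TFIID genes, 20 Mediator genes and 11 Integrator genes. Chromatin immunoprecipitation with sequencing (ChIP-seq) was carried out on whole larvae of both sexes of the strain OP102, of genotype unc-119(tm4063) III; wgIs102, which carries an insertion targeting mep-1 and a GFP-tagged MEP-1 protein. The age of the larvae is given as unknown. There was 1 group with 2 biological replicates and no untagged strain or second stage, so the design holds no contrast. A control entered the authors' peak calling but was not analysed here, the depth of the libraries is unknown, and each value below is a level or a place in these libraries. Whole larvae mix all tissues, so a peak cannot be given to a cell type.

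RNA polymerase II is the enzyme that transcribes protein-coding genes. TFIID carries the TATA-binding protein with its associated factors (TAFs) and binds core promoters, Mediator relays signals from DNA-bound activators to the polymerase, and Integrator cuts the 3' ends of small nuclear RNAs and ends transcription early at many protein-coding genes. MEP-1 is known for acting with the chromatin remodeller LET-418 to keep germline genes off in somatic cells. Many worm genes are transcribed in operons, in which one promoter upstream of the first gene serves several genes on the same strand, so a gene need not have a promoter directly in front of it.

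Optimal peaks are those of the final list from the authors' irreproducible discovery rate (IDR) step. That list equals the 4904 highest-signal peaks called on both replicates pooled. Of its peaks, 76.9% were also among the 4904 highest of each replicate list, so not every one was strong in both. A gene was counted when the summit of an optimal peak lay from 1000 bp upstream to 200 bp downstream of one of its annotated 5' ends. By this rule 30 of the 59 genes (50.8%) had a promoter summit, each of them a single one, against 17.5% of all protein-coding genes. The 4 complexes stood at 9 of 11 Integrator genes (81.8%), 8 of 17 TFIID genes (47.1%), 5 of 11 RNA polymerase II genes (45.5%) and 8 of 20 Mediator genes (40.0%). Subunit genes with older names, most of them Mediator genes, were outside these counts and are given further below. The order below Integrator therefore holds only for genes taken by the start of their name. Each summit counts for every gene whose window holds it. When it was counted for the nearest 5' end alone, 22 of the 59 genes (37.3%) remained against 13.4% of all genes. Integrator then still had 9 genes, while TFIID had 5, RNA polymerase II 4 and Mediator 4. No test of these shares was made, because the genes were chosen with earlier results of these data known.

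The peaks differed widely in strength. The authors' signal value, which ranks peaks within a list, ran from 59.0 to 453 over the 30 genes with a median of 149, against 106 over all genes with a promoter summit. Within the optimal list of 4904 peaks the ranks ran from 49 to 3677, and 11 of the 30 summits (36.7%) were among the strongest 490 peaks, against 16.4% for all genes with a summit. Mediator and RNA polymerase II supplied 5 and 3 of those 11, TFIID 2 and Integrator 1. Integrator thus had the highest share of genes with a peak, and its median signal of 123 was below those of Mediator (224) and RNA polymerase II (212) and above that of TFIID (99.8).

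**Figure D1:**
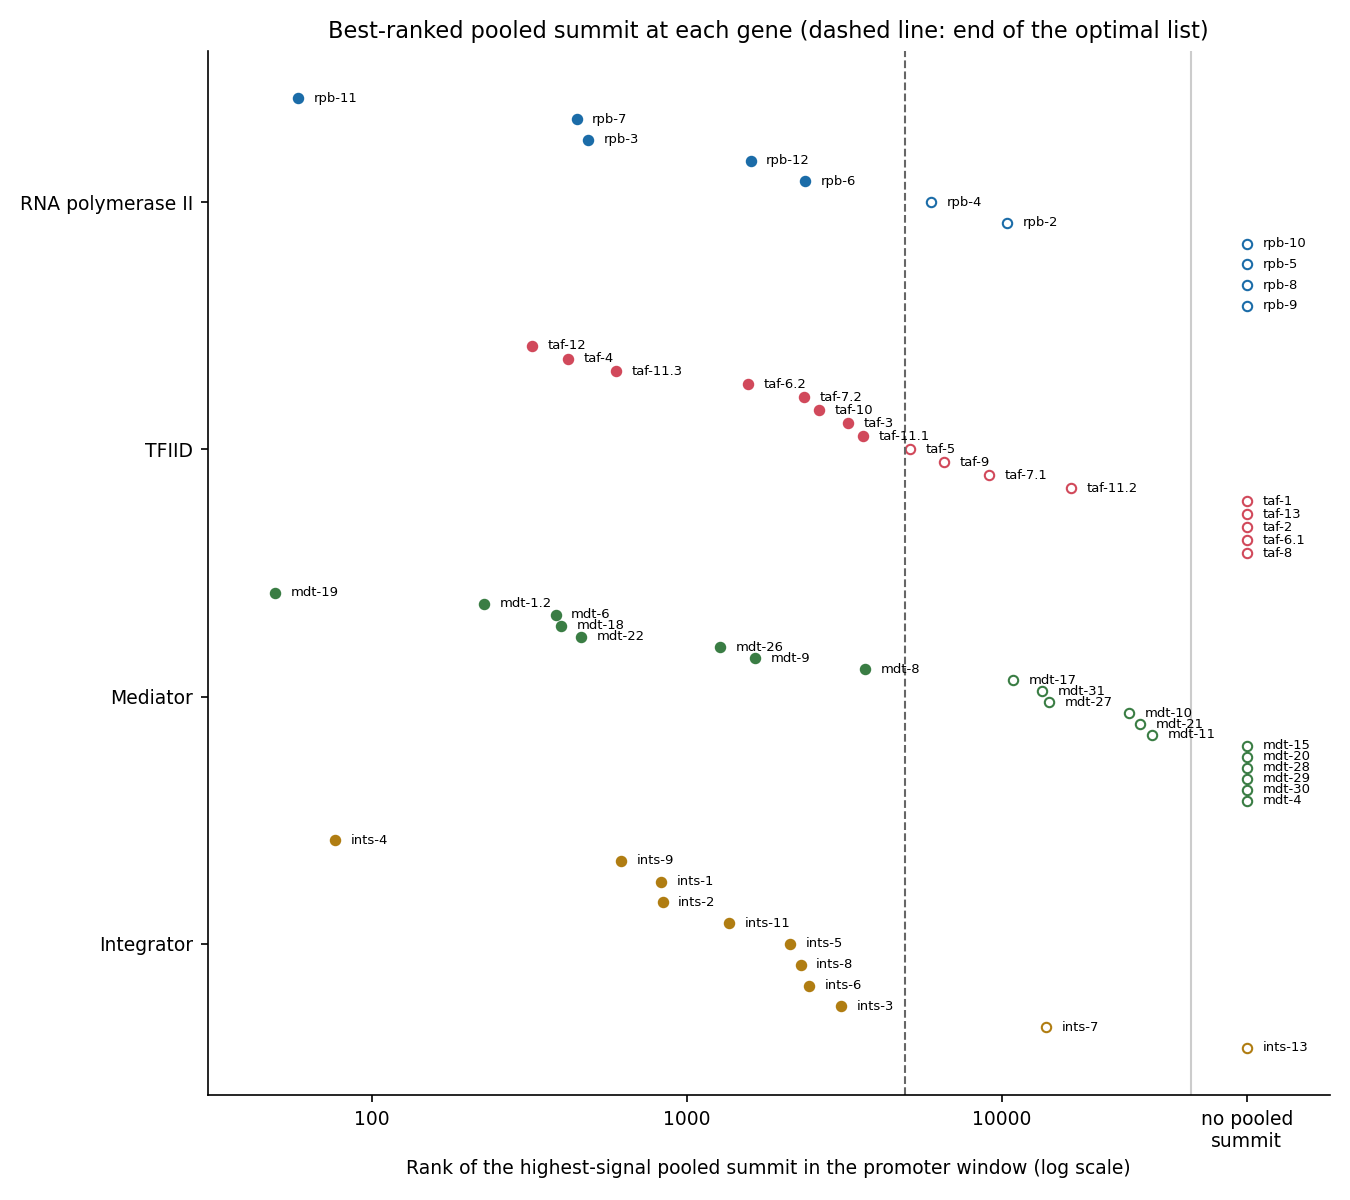
Rank of the highest-signal pooled summit in the promoter window of each of the 59 genes, on a log axis, 1 point per gene, grouped by complex. Filled points left of the dashed line are the 30 genes in the optimal list, which ends at rank 4904; open points are genes below it or, at the right edge, the 16 genes with no pooled summit.

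Among the RNA polymerase II genes the strongest peak was at rpb-11 (WBGene00012187), which encodes a subunit that pairs with RPB-3 in the assembly core of the enzyme. Its peak at chrII:14059853-14060102 had a signal of 424 and rank 58 in the optimal list, with rank 55 in replicate 1 and rank 76 in replicate 2. The summit lay 118 bp upstream of the 5' end, and the window of W01G7.4 held it too. The partner gene rpb-3 had a signal of 212 (ranks 581 and 407 in the replicates), 138 bp upstream, at a summit 139 bp from the opposite-strand 5' end of the proteasome gene pas-4. Both genes of this subunit pair thus had a summit. At rpb-7, for a subunit of the stalk that reaches out of the enzyme, the summit was 38 bp inside the gene and 35 bp from the 5' end of Y54E10BR.2 (signal 220.1, ranks 401 and 590). The gene for the other stalk subunit, rpb-4, had no optimal summit, and its best pooled summit ranked 5955.

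The remaining RNA polymerase II peaks were at rpb-12 (signal 113, ranks 1391 and 2885) and rpb-6 (84.9, ranks 2716 and 1894). The rpb-12 summit was 273 bp upstream, in windows it shares with aly-2 and daf-10, and the rpb-6 summit was 311 bp upstream, shared with dohh-1. Both encode small subunits that RNA polymerases I, II and III have in common. Of the 5 genes for such common subunits, rpb-5, rpb-8 and rpb-10 lacked an optimal summit, and of the 6 genes for subunits of polymerase II alone, rpb-2, rpb-4 and rpb-9 lacked one. The gene for the second-largest subunit, rpb-2, had a weak pooled summit of rank 10366. The sequences at the rpb-11 and rpb-6 summits are shown because they are the strongest and weakest of this complex and hold the same word. They give 50 bp to each side of the summit on the coding strand of the gene (ce11), with capitals for the 6-base words described below.
rpb-11 (chrII:14059917-14060017, plus strand): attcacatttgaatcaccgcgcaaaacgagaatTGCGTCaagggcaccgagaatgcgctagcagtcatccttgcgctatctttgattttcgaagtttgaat
rpb-6 (chrII:10579019-10579119, plus strand): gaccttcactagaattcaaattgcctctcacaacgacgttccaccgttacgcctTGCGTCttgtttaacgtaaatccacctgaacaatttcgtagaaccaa

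TFIID genes gave summits of lower rank. The strongest was at taf-12 (WBGene00006396), which encodes a TAF with a histone fold, at chrIII:11870054-11870319 with a signal of 253 and ranks 262 and 495 in replicates 1 and 2. It lay 896 bp upstream, and no other gene's window held it. At taf-4, for a scaffold TAF, the signal was 225 (ranks 375 and 563), 283 bp upstream and 641 bp from the 5' end of pqn-59. Weaker summits were at taf-6.2 (signal 114, ranks 1633 and 1464), taf-10 (77.7, ranks 2761 and 2711) and taf-3 (65.5, ranks 3470 and 2886). They lay 117, 194 and 330 bp upstream, and no other gene's window held those of taf-10 and taf-3.

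Where TFIID subunits are encoded by sets of related genes, some copies had a summit and others did not. Of the 3 taf-11 genes, taf-11.3 had a summit with a signal of 195 (ranks 540 and 930) and taf-11.1 one with a signal of 59.7 (ranks 3679 and 4088), each 148 bp upstream. The third, taf-11.2, had none in the optimal list and a best pooled rank of 16565. At taf-7.2 the signal was 85.7 (ranks 2214 and 3199), while taf-7.1 had a best pooled rank of 9119. At taf-6.1 no pooled summit lay in the window, in contrast to taf-6.2. The summits at taf-11.3, taf-6.2 and taf-7.2 were nearer to the opposite-strand 5' ends of urm-1 (82 bp), Y37E11AL.3 (85 bp) and elpc-2 (106 bp). Those 3 summits could not be given to the taf gene rather than to its neighbour.

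Of the TFIID genes outside the optimal list, taf-5 was closest to entering it, with a pooled rank of 5107, and taf-9 followed at 6567. No pooled summit lay in the windows of taf-1, the gene for the largest TAF, or of taf-2, taf-6.1, taf-8 and taf-13. The weakest TFIID peak inside the list, taf-11.1, had rank 3614. The sequences of taf-12, the strongest, and of taf-11.1 and taf-3, which hold 3 searched words each, are shown in the same way.
taf-12 (chrIII:11870127-11870227, minus strand): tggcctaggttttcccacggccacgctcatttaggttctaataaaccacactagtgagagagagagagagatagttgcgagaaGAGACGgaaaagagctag
taf-11.1 (chrX:4254972-4255072, plus strand): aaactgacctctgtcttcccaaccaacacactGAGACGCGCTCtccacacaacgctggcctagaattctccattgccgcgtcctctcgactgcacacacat
taf-3 (chrX:16332055-16332155, plus strand): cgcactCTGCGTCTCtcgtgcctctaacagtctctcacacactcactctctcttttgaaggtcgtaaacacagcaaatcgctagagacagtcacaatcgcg

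Mediator held the strongest peak of all the genes examined, but at 4 of its 8 summits the 5' end of another gene was nearer. The peak in the mdt-19 window had a signal of 453 and rank 49, with ranks 84 and 16 in replicates 1 and 2. It lay 764 bp upstream of mdt-19 (WBGene00007019) and 255 bp from the opposite-strand 5' end of apb-1, an adaptor gene of vesicle transport. The 5' end of another gene was also nearer at mdt-6 (signal 237, ranks 464 and 253), whose summit was 916 bp upstream and 10 bp inside Y57E12AL.1. The others were mdt-8 (59.0, ranks 4743 and 2232), 984 bp upstream and 321 bp from Y62F5A.12, and mdt-9 (111, ranks 1538 and 2095), 106 bp upstream and 50 bp from Y62E10A.23. For mdt-8, rank 2232 was that of the strongest overlapping replicate 2 peak, and the best replicate 2 summit within its window ranked 2827. With the window cut to 500 bp, 5 Mediator genes had a summit, without mdt-19, mdt-6 and mdt-8.

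At the other 4 Mediator genes with a summit the gene's own 5' end was the nearest. The gene mdt-1.2 (WBGene00007011), for a subunit of the middle module, had a peak in no other gene's window at chrX:17151238-17151493, 161 bp upstream, with a signal of 285 and ranks 284 and 156. At mdt-22, for a small head subunit, the signal was 218 (ranks 489 and 512), 66 bp upstream, within an intron of clpp-1. The mdt-18 summit (230.0, ranks 422 and 455) lay 109 bp upstream of an internal 5' end and within an exon of the gene, in a window shared with uri-1, so it was lost when the outermost 5' end alone was used. At mdt-26 (129.8, ranks 1787 and 649) the summit was 80 bp inside the gene, in a window shared with ift-43.

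Of the 7 genes for subunits of the head module as known from yeast, mdt-6, mdt-8, mdt-18 and mdt-22 had a summit, while mdt-11, mdt-17 and mdt-20 had none in the optimal list. The gene mdt-15, whose product works with nuclear hormone receptors in fat metabolism, had no pooled summit. Neither had mdt-4, mdt-20, mdt-28, mdt-29 and mdt-30. Weak pooled summits were present at mdt-17 (rank 10829), mdt-31 (13416), mdt-27 (14155), mdt-10 (25367), mdt-21 (27476) and mdt-11 (29934). The sequences at mdt-1.2 and mdt-22 are shown as the strong Mediator peaks that belong to no other promoter window.
mdt-1.2 (chrX:17151311-17151411, plus strand): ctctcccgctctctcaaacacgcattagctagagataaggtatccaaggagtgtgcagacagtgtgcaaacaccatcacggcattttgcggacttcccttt
mdt-22 (chrII:10301100-10301200, plus strand): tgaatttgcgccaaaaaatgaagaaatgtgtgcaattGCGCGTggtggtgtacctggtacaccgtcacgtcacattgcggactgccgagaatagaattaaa

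Integrator was the most fully covered of the 4 complexes. All 3 genes of the cleavage module had a summit, namely ints-11, which encodes the endonuclease, its partner ints-9 and the scaffold ints-4. The ints-4 peak (WBGene00012234), on I at 13663241 to 13663542, had a signal of 405 and rank 76, with ranks 59 and 135 in the replicates. Its summit was 54 bp inside the gene, in no other gene's window. At ints-9 the signal was 192 (ranks 542 and 1090), 60 bp upstream and 72 bp from snu-66, and at ints-11 it was 123 (ranks 1200 and 2161), 6 bp upstream and 397 bp from the ribosomal protein gene rpl-10.

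The genes of the module that recruits a protein phosphatase, ints-5, ints-6 and ints-8, each had a weaker summit. Their signals were 93.2 (ranks 1832 and 3339), 82.9 (ranks 2476 and 3152) and 87.5 (ranks 1978 and 3428), at 121, 29 and 108 bp upstream. Only the ints-6 summit of these 3 was also in another window, that of hst-1. The large backbone genes ints-1 and ints-2 both had a signal of 168 when rounded to a whole number, with ranks 779 and 1039 and ranks 813 and 1113 in the replicates, 33 and 21 bp upstream. The ints-1 summit was also in the window of rnf-1. The ints-2 summit was also 53 bp from the 5' end of trm-1. At ints-3 the signal was 68.1 (ranks 3438 and 3022), 162 bp upstream and 176 bp from Y92H12A.5. The exceptions were ints-7, with a pooled summit of rank 13830, and ints-13, with none. The sequences at ints-9 and ints-5 are shown for the cleavage and phosphatase modules.
ints-9 (chrV:7575692-7575792, plus strand): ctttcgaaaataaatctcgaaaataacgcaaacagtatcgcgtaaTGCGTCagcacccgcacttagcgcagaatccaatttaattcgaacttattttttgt
ints-5 (chrV:18533782-18533882, plus strand): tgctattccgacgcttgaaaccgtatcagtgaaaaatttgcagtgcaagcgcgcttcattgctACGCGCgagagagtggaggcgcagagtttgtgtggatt

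Set side by side, the complexes differed in where the summit lay. The 9 Integrator summits lay from 162 bp upstream to 54 bp downstream of the gene's own 5' end, with a median distance of 54 bp in either direction. For each of them the Integrator gene was the nearest, but 6 were in another gene's window too. The margin was narrow at ints-9 (60 bp, against 72 bp for snu-66) and ints-3 (162 bp, against 176 bp for Y92H12A.5). Summits of a gene also moved between replicates, as at ints-8, with 108 and 33 bp upstream. The ints-9 and ints-3 summits could therefore not be given to the Integrator gene rather than to its neighbour. The median distance was 138 bp for RNA polymerase II, 135 bp for Mediator and 171 bp for TFIID. Over all genes with a promoter summit it was 226 bp, 45.6% lay within 200 bp and 75.2% had their own 5' end nearest. Over the 30 genes, 22 summits (73.3%) lay within 200 bp and 22 (73.3%) had the gene's own 5' end nearest. The second share was close to that of all genes. Summits were between genes in 24 of 30 cases, in an exon in 5 and in an intron in 1. Places of this kind were not counted over all promoter summits, so these counts cannot be called high or low.

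**Figure D2:**
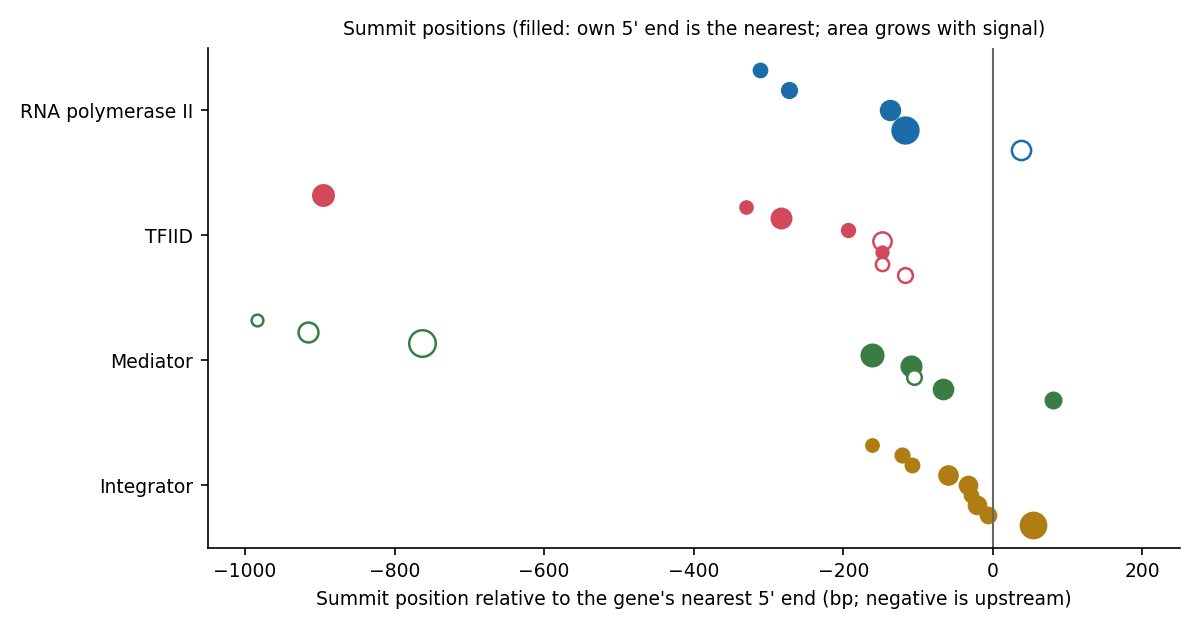
Position of each of the 30 promoter summits relative to the nearest 5' end of its gene, in bp with upstream negative, 1 row per complex; filled points have that gene's 5' end as the nearest of all, and the area of a point grows with the authors' signal. The Integrator points all lie between -162 and 54 bp, while 3 Mediator points and 1 TFIID point lie beyond 500 bp upstream.

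Most of the summits were in the windows of several genes. Of the 30, 21 (70.0%) lay in another gene's window too, against 48.0% for all genes with a summit. For 18 the sharing genes included one on the opposite strand, a count that was not made for all genes. The share was 5 of 5 for RNA polymerase II, 6 of 8 for Mediator, 6 of 9 for Integrator and 4 of 8 for TFIID. The summits in a single window were those of taf-3, taf-10, taf-11.1 and taf-12, mdt-1.2 and mdt-22, and ints-4, ints-5 and ints-8.

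The genes were also split by the arrangement of their neighbours. A gene was called head to head with another when the outermost 5' end of an opposite-strand gene lay within 1000 bp upstream. Of the 17 head-to-head genes 15 (88.2%) had a promoter summit, against 39.3% of such genes in the whole genome. The exceptions were rpb-4, beside mtch-1, and rpb-10, beside Y37E3.1. Of the other 42 genes 15 (35.7%) had one, against 12.8% genome-wide. A head-to-head pair shares its upstream sequence, so 1 summit can count for both genes through the way the windows are set. At taf-6.2, taf-7.2, taf-11.3, mdt-6 and mdt-9 among the head-to-head genes, another gene's 5' end was nearer to the summit.

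Genes with a close upstream neighbour on the same strand had a promoter summit less often than the other genes of the set. A same-strand gene ended less than 1000 bp upstream at 25 of the 59 genes (42.4%), against 28.6% of all protein-coding genes. Among these 25 genes, 5 had a promoter summit, namely taf-11.1, taf-11.3, mdt-6, mdt-8 and ints-8. The genome-wide share for such genes was 12.2%. Among the remaining 34, 25 (73.5%) had one, against 19.6% genome-wide. Over all 30 genes 22 summits had the gene's own 5' end nearest, but of the 5 named only those of taf-11.1 and ints-8 did. The taf-11.3 summit was nearest to urm-1, and the mdt-6 summit to Y57E12AL.1. The mdt-8 summit was nearest to its close upstream neighbour, Y62F5A.12, and the mdt-6 summit lay 70 bp from its own, Y57E12AL.6. With a gap under 150 bp, 2 of 15 genes had a summit, mdt-6 and mdt-8. The median gap to the upstream gene was 113 bp at the 25 genes with a close upstream neighbour and 363 bp genome-wide. Gaps of this size are typical of worm operons, but the annotation gives neighbours and not operons, so membership of an operon was not tested. For 3 Mediator genes, mdt-9, mdt-29 and mdt-31, the upstream gene overlapped the 5' end, and they were placed with the 34.

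**Figure D3:**
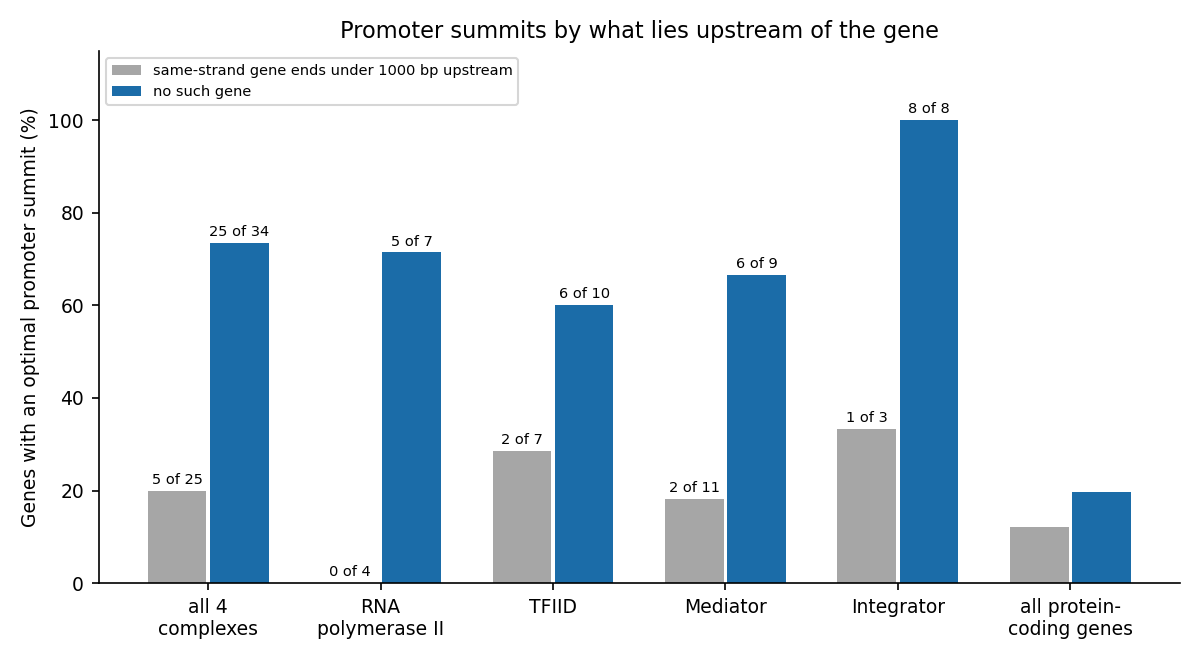
Percent of genes with an optimal promoter summit, split by whether a same-strand gene ends less than 1000 bp upstream (grey) or not (blue), for the 4 complexes together, for each and for all protein-coding genes; numbers above the bars of the complexes give genes with a summit of genes in the class. The blue bar is the higher in each complex, with 8 of 8 genes in Integrator and 0 of 4 grey genes in RNA polymerase II.

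The complexes differed in how many genes had such a neighbour. Mediator had 11 of 20, TFIID 7 of 17, RNA polymerase II 4 of 11 and Integrator 3 of 11. Of the genes without a close upstream neighbour, 8 of 8 Integrator genes had a summit, 5 of 7 RNA polymerase II genes, 6 of 9 Mediator genes and 6 of 10 TFIID genes. The 9 without a summit in this class were rpb-4, rpb-10, taf-1, taf-5, taf-7.1, taf-11.2, mdt-20, mdt-29 and mdt-31.

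For the 20 genes with a close upstream neighbour and no summit of their own, the genes further upstream in the same-strand run were then looked up. At 12 of the 20 (60.0%) at least 1 upstream gene of the run had a promoter summit, against 29.4% of the 5014 such genes genome-wide. The strongest was at wip-1, ahead of mdt-11, with a signal of 422, rank 59 and replicate ranks 69 and 55. It lay 2914 bp from the mdt-11 5' end. The first gene of the run also had a summit ahead of taf-9 (mlc-5, signal 149), mdt-21 (immp-1, 146) and ints-13 (fnta-1, 107). Weaker ones were ahead of mdt-10 (cec-3, 79.6), mdt-17 (prmt-1, 76.5), rpb-9 (Y97E10AR.6, 75.3), ints-7 (smc-6, 73.4) and taf-6.1 (eri-3, 45.8). The eri-3 summit was near the end of the optimal list, at rank 4840 of 4904, with replicate ranks 4506 and 6967. The mlc-5 summit lay 799 bp upstream of mlc-5. For rpb-2, rpb-8 and mdt-30 the summit was at a gene within the run, mrps-18C, set-2 and F44B9.8. Both Integrator genes without a summit of their own, ints-7 and ints-13, were in this group. No summit was found along the runs of rpb-5, taf-2, taf-8, taf-13, mdt-4, mdt-15, mdt-27 and mdt-28.

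The replicates ranked the 30 peaks in a like order. Each of the 30 was among the 4904 highest of both replicate lists, against 81.8% of all 2837 optimal summits in promoter windows. These shares cover peaks of unlike strength. In the higher-signal 50% of the optimal list were 25 of the 30 (83.3%), against 64.9% for all genes with a summit. Spearman's rho between the ranks in the 2 replicates was 0.879 over the 30 peaks and 0.809 over 2813 promoter peaks matched in both, given as descriptions, since the peaks share the same 2 libraries. The order was not identical. Of the 9 Integrator peaks 8 ranked higher in replicate 1, the exception being ints-3, while 5 of the 8 Mediator peaks ranked higher in replicate 2. Over all matched promoter peaks 56.8% ranked higher in replicate 1. As a ratio of ranks, the difference was largest at mdt-19, at 84 and 16, followed by mdt-26, at 1787 and 649. With 2 libraries, a difference between complexes in this respect could not be tested.

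**Figure D4:**
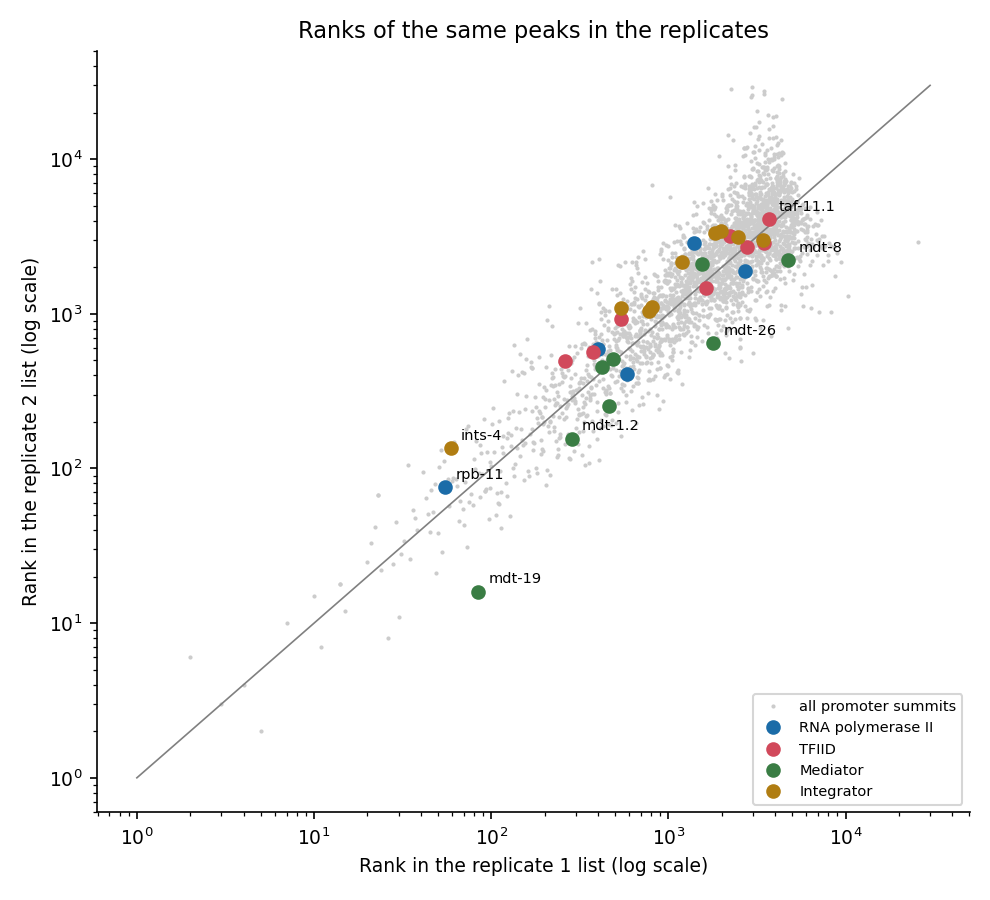
Rank of each peak in the replicate 1 list against its rank in the replicate 2 list, both on log axes, for the 30 promoter peaks coloured by complex and for 2813 promoter peaks of all genes in grey; the line marks equal ranks. The coloured points run along the line, with mdt-19, mdt-26 and mdt-1.2 below it and ints-4 above it.

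Some genes without an optimal summit had one in a replicate list. Of the 29, 4 (13.8%) had a summit among the 4904 highest of at least 1 replicate, against 3.60% of all 16482 genes without an optimal summit. At rpb-5 the call ranked 1775 in replicate 1 and 4816 in replicate 2, 331 and 321 bp upstream, and no pooled summit lay in its window, so the optimal list, a subset of the pooled list, could not contain it. At rpb-10 a summit 232 bp upstream ranked 1873 in replicate 2, at rpb-8 one 132 bp upstream ranked 4077, and at taf-8 one 133 bp upstream ranked 1937. Replicate 1 had no call in the windows of these 3 genes. The genes rpb-5, rpb-8 and rpb-10 are the 3 genes for common polymerase subunits that lacked an optimal summit. Of the 4904 highest peaks, 51 of replicate 1 (1.04%) and 188 of replicate 2 (3.83%) overlapped no pooled peak. Why the pooled list lacks them was not tested. Taken from replicate 2 alone, 8 of 11 RNA polymerase II genes had a summit in place of 5, and from replicate 1 alone 6 had one.

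At relaxed thresholds more of the genes had some call. A pooled summit of any rank lay in the windows of 43 of the 59 genes (72.9%), against 42.3% of all genes, and 13 of these 43 were outside the optimal list. No call in any of the pooled and replicate lists was found at 7 genes, which were rpb-9, taf-2, mdt-4, mdt-15, mdt-20, mdt-28 and mdt-29.

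Short words were looked up in the 101 bp around each summit, on both strands. The word GACGCA with its neighbour ACGCAG, the word CGTCTC, and the pair ACGCGC with GAGCGC were found in earlier work on these same peaks, and the TATA box was searched as TATAAA. The word ACGCAG overlaps with GACGCA by 5 bases, and the other words can overlap too, as they do at taf-11.1 and taf-3. ACGCGC lay at 11 of 30 summits (36.7%), against 14.7% of all 2837 promoter summits, and GAGCGC at 7 (23.3%) against 14.1%. The ACGCGC summits were those of taf-6.2, taf-10 and taf-11.1, of mdt-6, mdt-9, mdt-19 and mdt-22, and of ints-3, ints-5, ints-6 and ints-8, with 0 of the 5 RNA polymerase II summits. GACGCA was at 5 of 30 (16.7% against 17.5%), ACGCAG at 4 (13.3% against 16.9%) and CGTCTC at 4 (13.3% against 18.2%), which is near the level of all promoter summits. In the printed sequences GACGCA appears as its reverse complement TGCGTC at rpb-11, rpb-6, taf-3 and ints-9. TATAAA was at 2 summits (6.67% against 5.15%). At least 1 of the first 5 words was found at 21 of 30 summits (70.0%), against 47.4%. The median GC content of the 101 bp was 45.0%, close to the 45.5% of all promoter summits, and the Integrator median of 39.6% was the lowest of the 4.

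Beyond these words, some summits shared a longer stretch. The best ungapped match of 24 bases was found for each of the 435 pairs of summit sequences, on either strand, leaving out stretches in which 1 base makes up more than 50% of the letters. A match of at least 18 bases was seen in 22 pairs and one of at least 20 in 6 pairs. Pairs of other promoter summits were not counted in this way, so these counts cannot be called high or low. The closest match was between taf-11.3 and ints-5, with 22 of 24 bases alike. A stretch with at least 20 of 24 bases equal to that of taf-11.3 lay at 5 of the 2837 promoter summits (0.176%). The pairs rpb-11 with rpb-7 and taf-6.2 with ints-3 had 21 alike, and mdt-1.2 with mdt-22, mdt-9 with ints-3 and taf-11.3 with taf-7.2 had 20. The mdt-1.2 stretch is shown as one shared within Mediator, and 6 promoter summits (0.211%) held a stretch that matched it at 20 or more bases. This comparison was made after the sequences were seen. The stretches are given on the coding strand, with capitals for the bases that differ.
taf-11.3 (chrIII:10505352-10505375): gctacgcgTTagagagtggaggcg
ints-5 (chrV:18533842-18533865): gctacgcgCGagagagtggaggcg
mdt-1.2 (chrX:17151380-17151403): acaccAtcacgGcaTTttgcggac
mdt-22 (chrII:10301158-10301181): acaccGtcacgTcaCAttgcggac

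Genes of the same machinery with other names were looked up from fixed lists. Of 11 matched subunit genes of the 4 complexes that carry older names, 7 (63.6%) had a promoter summit. They were ama-1, for the largest subunit of RNA polymerase II (signal 131, replicate ranks 1165 and 1531), and the Mediator genes sop-3 (180.4), dpy-22 (102), cic-1 (89.9), sur-2 (81.2), cdk-8 (68.8) and rgr-1 (61.4). The gene for the TATA-binding protein, tbp-1, had none, and neither had let-19, let-49 and lin-25. General initiation factors had a summit at 8 of 18 genes (44.4%), with the strongest at pqn-51 (287) and cdk-7 (243). The tlf-1 summit among these was the one already counted for cdk-8, whose 5' end was nearer to it. The mnat-1 summit was nearer to F53G2.12. Elongation factors had a summit at 7 of 18 (38.9%), led by pafo-1 (272), and genes of RNA polymerases I and III at 3 of 10, namely rpoa-1 (127), rpac-19 (117) and rpc-1 (95.8). At hmg-4, rtfo-1 and ccnk-1 of the elongation factors another gene's 5' end was nearer to the summit. The replicate ranks were far apart at rpoa-1, at 803 and 6779. Also outside the 4904 highest of replicate 2 were the initiation factor genes xpb-1 (ranks 2419 and 6072), mnat-1 (4312 and 6307) and gtf-2H3 (4493 and 7206). The gtf-2H3 signal of 46.0 was near the lowest of the optimal list, 45.3. The shares of these lists are set beside the 17.5% of all protein-coding genes and were not tested.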

How the data were processed

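Per the deposited file lists, the authors called peaks for each of 2 biological replicates and for both pooled, with a control, and the IDR step turned those 3 lists into the optimal one. The measure is the authors' deposited signal, 1 number for each peak. Its scale changes from list to list, so peaks were ranked only within one. For aligner, caller, versions and IDR threshold the sources used here give nothing. On ce11 there were 4904 optimal and 30000 pooled peaks, with 30000 and 29149 for replicates 1 and 2. They carry no read counts, so depth is unknown and intervals were not computed. The optimal list was checked to be the top 4904 of the pooled one. The ce10 lists were not used.

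Genes came from Ensembl release 115 (WBcel235, chromosomes I to V and X), using 5' ends of protein-coding transcripts. Bases were read from RefSeq's WBcel235 assembly, the same build as ce11. An optimal peak was matched to the highest-signal replicate peak that it overlapped by at least 1 bp. The gene set, other gene lists and words were chosen with earlier results of these data known. The role groups, runs of neighbours, replicate windows and shared stretches were chosen after the values were seen. Every gene of the set is named, with values where an optimal or pooled summit lay in its window. No statistical test was run. The assignment to windows was tested on simulated data. Software was Python 3.11.15 with the packages numpy 2.4.6, pandas 2.3.3, scipy 1.17.1 and, for figures, matplotlib 3.10.9. Alternatives were other windows, 5' ends, assignment and overlap rules, a stricter peak set and each replicate alone.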

Additional observations from a re-analysis of the deposited data

How the results depend on the processing

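The count of 30 of 59 genes with a promoter summit stayed between 22 and 33 under the window, 5' end, assignment, overlap and peak-strength alternatives. It was 34 from replicate 2 alone and 31 from replicate 1 alone, and both kept the 30 genes of the optimal list. Some counts of single complexes moved by over 1.5 times. With each summit given to the nearest 5' end alone, Mediator had 4 genes in place of 8 and TFIID 5 in place of 8. With a window of 500 bp Mediator had 5. With the higher-signal 50% of the optimal peaks TFIID had 5, without taf-3, taf-10 and taf-11.1. From single replicates the RNA polymerase II count was 6 to 8 in place of 5, the TFIID count 8 to 9, the Mediator count 8 and the Integrator count 9. Integrator kept 8 or 9 genes under every alternative run, the 8 being without ints-3 at the stricter peak set. The median signal ran from 127 to 149 over the 4 alternatives tried for it, and rho was 0.864 over 24 peaks matched at a reciprocal overlap of 50%. Counting 5' ends of every transcript, an alternative added after the data were seen, changed none of these counts. No paired analysis was possible because there is only 1 group. Depth is unknown, so an absent call cannot be told apart from a weak one.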
